A study of Mus musculus with 15 samples.

Results

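The cytochrome P450 genes of families 1, 2 and 3 were examined in the livers of newborn mice. They were taken as every gene on the array whose annotated name starts with Cyp1, Cyp2 or Cyp3 followed by a subfamily letter and a member number, and each gene was read by 1 probe, the brightest of its probes over all arrays. The rule matched 74 probes for 56 genes in 16 subfamilies, of 34797 genes or single-probe transcripts on the array. A probe was tested if 3 or more of the 15 arrays read it well above background, which left 53 of the 56 genes among 27556 tested in all.

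Each array carried the liver RNA of 1 pup of the C57BL/6J strain on postnatal day 1, the day after natural delivery. The wild-type group held 5 littermates with 50 to 72 mg/dl of blood glucose. All KO pups had inherited, from the mother, a chromosome lacking the miR-379/miR-410 microRNA cluster. The labels divide the KO pups by glucose into 3 called normoglycemic, with 44 to 56 mg/dl, which the design text describes as mildly hypoglycaemic, and 7 called hypoglycemic, with 9 to 33 mg/dl. The glucose split was made after birth within 1 genotype, so glucose level and any other state of the severely affected pups cannot be told apart. The labels do not say which litter each pup came from.

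Enzymes of these families are haem proteins of the endoplasmic reticulum that oxidise drugs, toxins, steroids and fatty acids with electrons passed on by P450 oxidoreductase. Hepatocytes are their main site of synthesis, and many of the genes are switched on around birth. The aryl hydrocarbon receptor drives the Cyp1 genes, the nuclear receptors CAR and PXR drive many Cyp2b, Cyp2c and Cyp3a genes, and liver factors such as HNF4 act on most of them. In adult liver Cyp1a2 and Cyp2e1 are made mainly around the central vein, and Cyp2f2 around the portal vein.

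The upstream stretches of 4 genes are shown because the results below turn on how differently these genes behaved: Cyp1a2, Cyp2e1 and Cyp2c67 lay lower in hypoglycaemic KO livers, and Cyp3a11 did not. RefSeq's promoter table (GRCm38.p6) held 47 of the 56 genes with 50 promoters, 3 genes having 2. The 250 bases before each start were searched on both strands for 6 short motifs, namely CAAAGTCCA (the core of an HNF4 site), AGGTCA (a nuclear receptor half-site), TGTTTAC (a forkhead core), TTGCNNAA (a C/EBP core, N being any base), GCGTG (the aryl hydrocarbon receptor core) and TATAAA (the TATA box). Each sequence runs 5′ to 3′ in the direction of the gene and ends at the base before its start, with every motif match in capitals.
Cyp1a2, chr9:57683656-57683905, minus strand: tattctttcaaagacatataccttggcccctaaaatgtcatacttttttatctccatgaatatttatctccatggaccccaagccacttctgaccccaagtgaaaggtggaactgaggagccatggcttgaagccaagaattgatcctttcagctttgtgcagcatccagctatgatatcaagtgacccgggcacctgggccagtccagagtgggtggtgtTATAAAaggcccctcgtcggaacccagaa
Cyp2e1, chr7:140763569-140763818, plus strand: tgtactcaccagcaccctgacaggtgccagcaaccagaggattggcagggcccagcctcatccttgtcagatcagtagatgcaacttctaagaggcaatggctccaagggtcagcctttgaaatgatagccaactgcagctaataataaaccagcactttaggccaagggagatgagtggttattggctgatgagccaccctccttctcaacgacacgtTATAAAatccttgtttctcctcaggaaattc
Cyp2c67, chr19:39649043-39649292, minus strand: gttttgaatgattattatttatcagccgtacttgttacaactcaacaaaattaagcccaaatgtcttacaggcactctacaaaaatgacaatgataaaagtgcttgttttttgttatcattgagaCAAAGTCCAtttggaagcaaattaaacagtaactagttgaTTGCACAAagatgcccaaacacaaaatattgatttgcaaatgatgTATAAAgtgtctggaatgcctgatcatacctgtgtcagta
Cyp3a11, chr5:145879855-145880104, minus strand: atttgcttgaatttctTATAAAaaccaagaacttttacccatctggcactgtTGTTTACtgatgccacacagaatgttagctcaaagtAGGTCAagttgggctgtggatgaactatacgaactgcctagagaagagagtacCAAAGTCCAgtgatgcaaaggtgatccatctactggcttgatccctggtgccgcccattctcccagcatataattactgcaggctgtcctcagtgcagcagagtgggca
The TATA box was the one motif found in the Cyp1a2 and Cyp2e1 stretches, starting 29 and 31 bases before the start. Cyp2c67 also held an HNF4 core 125 bases and a C/EBP core 85 bases before its start. Cyp3a11 held an HNF4 core at 109 bases, a nuclear receptor half-site at 162 and a forkhead core at 198, with its TATAAA match at 234 bases. No 2 matches overlapped in these stretches.

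Across the 50 promoters the HNF4 core was present in 7 (14%), against 0.384% of all 32851 promoters in the table, and these 7 belonged to 4 Cyp2c and 3 Cyp3a genes. The TATA box was present in 46% against 12.4%, the nuclear receptor half-site in 32% against 14%, the C/EBP core in 24% against 9.56% and the forkhead core in 16% against 3.17%. The aryl hydrocarbon receptor core ran the other way, in 16% against 28.2%. Many of these genes are recent copies of one another and share promoter sequence, so the 50 promoters are not independent, and a match is a run of letters rather than a known site.

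The same relatedness touches the probes. Of 1540 pairs of chosen probes, 3 aligned without gaps over at least 35 bases with at most 12 mismatches. Probes were compared with one another and not with transcripts, so a probe that matches another gene's transcript elsewhere would be missed. For each pair the 30-base window of the aligned stretch with the most mismatches is shown. Bases outside that stretch were not compared, so the window sets no limit on how far 2 genes were read apart. Mismatched bases are in capitals. The positions are those of the whole 60-base probe, in the mm9 build of the scanner files.
Cyp2c37, chr19:40086467-40086526, plus strand: aCactgACttttatccaGttcttttgcctC
Cyp2c50, chr19:40188154-40188213, plus strand: aTactgCTttttatccaTttcttttgcctG
Cyp2d37-ps, chr15:82519182-82519241, minus strand: gCtccagCcAtcATcAcagAttgTTctGaC
Cyp2d40, chr15:82590288-82590347, minus strand: gTtccagTcTtcTCcCcagTttgGGctTaT
Cyp3a41b, chr5:146319794-146319853, minus strand: cagtgtctgtAcaGgttaTcatCtaatTAA
Cyp3a44, chr5:146585717-146585776, minus strand: cagtgtctgtGcaAgttaAcatAtaatACG
The Cyp2c37 and Cyp2c50 probes differed at 5 of 40 aligned bases, the Cyp3a41b and Cyp3a44 probes at 7 of 53, and those of Cyp2d40 and the pseudogene Cyp2d37-ps at 11 of 38. Levels of Cyp2c37 and Cyp2c50 ran almost in parallel over the 15 arrays (Pearson's r = 0.998, a description of probes that share sequence), so these cannot be counted as separate readings with certainty. The correlation was 0.927 for the Cyp2d40 pair and 0.817 for the Cyp3a41b pair.

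On each array 57.9 to 76.2% of the spots that were not controls lay well above background and none was saturated. Albumin read 9.65 to 10.08 in all 15 libraries on the scale used here, the log2 of the processed signal over the 75th percentile of its own array, and 13 of 14 listed hepatocyte markers had a tested probe, all 13 well above background in every library. Their summed level, as log2, spanned 12.4 to 12.7 among wild-type libraries, 12.5 to 12.6 among normoglycaemic and 12.4 to 12.6 among hypoglycaemic KO libraries. The sum weights bright markers most. Taken singly, the 13 differed by -0.62 to 1.49 between hypoglycaemic KO and wild type. Of these 2 lay lower and 2 higher at an unadjusted limma p under 0.05, against 8.99% and 9.71% of all tested genes. Between hypoglycaemic and normoglycaemic KO the 13 markers differed by -0.73 to 2.86. Here 2 lay lower and 3 higher, against 9.97% and 9.37%. Mirg, the host transcript of the deleted cluster, lay between 0.881 and 1.6 in wild-type livers, at -2.8 to -2.68 in normoglycaemic KO livers and at -3.02 to -1.23 in 6 hypoglycaemic KO livers. In the library labelled hypoglycaemic KO replicate 2 it read 0.656, against that label, and results are therefore also given without this library. The arrays lay on 2 slides that each held all 3 groups. RNA came from whole liver, so fewer cells of a type and less RNA per cell cannot be told apart.

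Most genes of the 3 families were already measurable on day 1. In 48 of 56 the probe was well above background in all 15 libraries, in 5 (Cyp2g1, Cyp2c66, Cyp2j5, Cyp2c65 and Cyp2w1) in 3 to 14 of them, and in 3 (Cyp2b19, Cyp2b23 and Cyp2j11) in only 1 or 2, so that these 3 were not tested. In wild-type livers 50 genes were well above background on all 5 arrays, and 35 had a mean level above the array's 75th percentile. The 8 probes with the highest wild-type level read Cyp2d26, Cyp2d11, Cyp2u1, Cyp2e1, Cyp3a11, Cyp3a25, Cyp2d10 and Cyp2d12, with means from 8.94 (Cyp2d26) to 6.16 (Cyp2d12). Probes differ in brightness, so these means order probes and not transcripts. The Cyp2u1 reading in particular rests on 1 bright probe, whose wild-type mean of 7.83 stood against -1.58 and -4.19 for the other 2 probes of that gene.

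**Figure D1:**
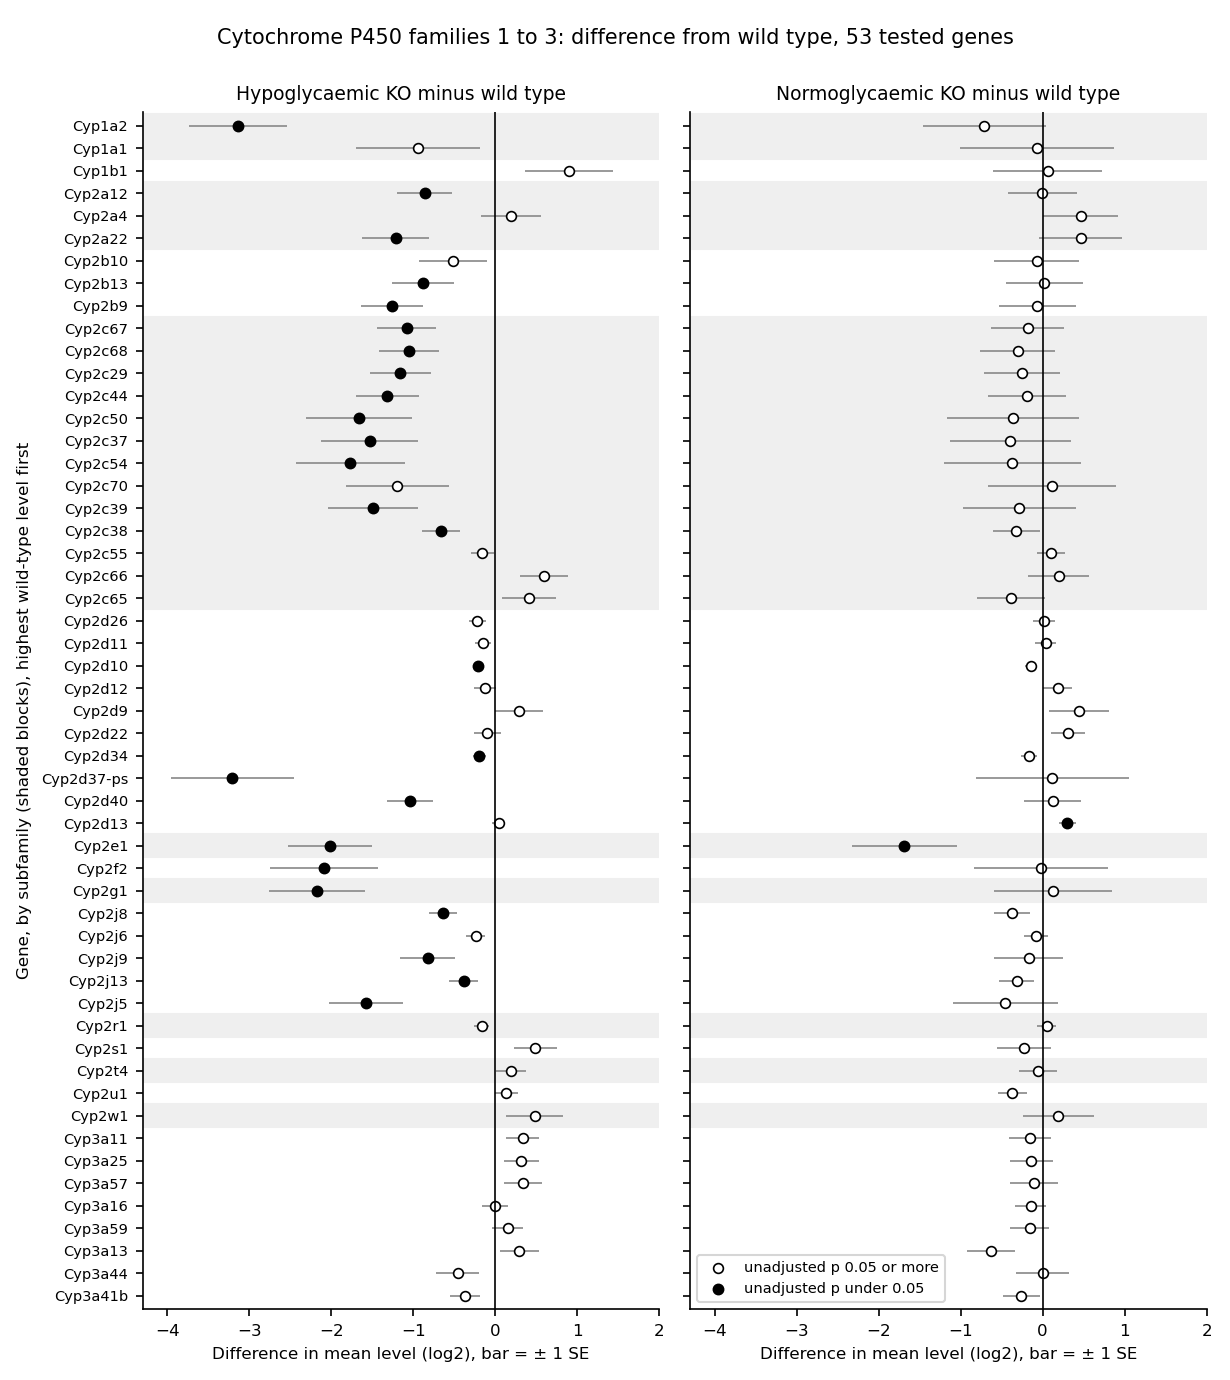
Difference in mean level (log2, x axis) from wild type for the 53 tested genes (y axis, by subfamily), in hypoglycaemic KO on the left and normoglycaemic KO on the right, with bars of ± 1 SE and filled points where the unadjusted p is under 0.05. On the left 25 points are filled, all below 0, among them 9 of the 13 Cyp2c genes, while no Cyp3a point is filled; on the right only Cyp2e1 and Cyp2d13 are.

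In hypoglycaemic KO livers Cyp1a2 and 24 of 42 tested Cyp2 genes lay lower than in wild-type livers at an unadjusted p under 0.05, and 0 of 8 Cyp3a genes did. None of the 53 genes passed an adjusted p of 0.05 over all genes (limma with Benjamini-Hochberg adjustment), where 5 of 27556 genes did (0.0181%). The smallest adjusted p was 0.0717, for Cyp1a2. At an unadjusted p under 0.05, 25 of the 53 lay lower and 0 higher, while 8.99% of all tested genes lay lower and 9.71% higher. The median difference over the 53 was -0.39, and 38 were below 0, against a median of 0.02 over all genes. Over the 48 genes measured in every library the median was -0.42, with 36 below 0. That filter uses no labels, but it drops genes that came near background in hypoglycaemic KO livers only, such as Cyp2g1 and Cyp2j5. Without the library labelled hypoglycaemic KO replicate 2, 28 lay lower and 0 higher, and 3 passed the adjusted threshold (Cyp2e1, Cyp1a2 and Cyp2j8). The 25 were 29 with slide as a block, 26 within slide 2 and 6 within slide 1, where 2 wild-type and 4 hypoglycaemic KO libraries remained. Without wild-type replicate 1, 7 genes lay higher at an unadjusted p under 0.05 and 4 passed the adjusted threshold (Cyp1a2, Cyp2d37-ps, Cyp2f2 and Cyp2b9), all lower. Without hypoglycaemic KO replicate 4, 3 passed it (Cyp1a2, Cyp2d37-ps and Cyp2d40).

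Among the Cyp1 genes the difference centred on Cyp1a2, which clears caffeine and other planar amines. Its levels were -1.32, 0.04, -1.91, 0.21 and 0.25 in wild-type replicates 1 to 5, -1.19, -1.11 and -1.47 in normoglycaemic KO replicates 1 to 3, and -5.66 to -2.10 with a median of -3.58 in hypoglycaemic KO livers. All 7 hypoglycaemic KO livers lay below all 5 wild-type livers and below all 3 normoglycaemic KO livers, the library labelled replicate 2 being the nearest of the 7 to the wild type. Such a complete separation below wild type held for 2 of the 53 genes, Cyp1a2 and Cyp2d10, and for 0.751% of all tested genes. The Cyp1a2 mean was 8.79-fold lower than in wild type (log2 difference -3.14 ± 0.60 SE, limma adjusted p = 0.0717). Without that library the difference was -3.40 and the limma adjusted p 0.0254, and the adjusted p was 0.0432 on the authors' processed values (-2.59) and 0.0267 after normexp background correction (-2.18). Within slides 1 and 2 the difference was -2.62 and -3.77.

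Cyp1a1, the neighbour of Cyp1a2 and the classic inducible target of the aryl hydrocarbon receptor, spread widely within wild type. Its wild-type levels were 0.92, -3.87, -1.09, -1.59 and 1.1, and hypoglycaemic KO livers lay within this range at -3.11 to -0.52. The difference of -0.94 ± 0.75 was within the spread (limma adjusted p = 0.526). It varied with the slide, at 0.25 within slide 1 and -2.16 within slide 2. Cyp1b1, an oestrogen-hydroxylating enzyme made largely outside the liver, had a mean of -2.01 in hypoglycaemic KO and -2.91 in wild-type livers (difference 0.90 ± 0.53, limma adjusted p = 0.386), and 1 hypoglycaemic KO library stood apart at -4.03. Its difference was 0.18 within slide 1 and 1.41 within slide 2.

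Cyp2e1, which oxidises ethanol, acetone and small solvents, was the one gene of the families that lay lower in both KO groups at an unadjusted p under 0.05. Its levels were 8.21, 7.60, 7.36, 7.83 and 7.52 in wild-type livers, 5.59, 6.40 and 6.07 in normoglycaemic KO livers, and 4.32 to 8.03 with a median of 5.82 in hypoglycaemic KO livers. The 8.03 belonged to the library labelled hypoglycaemic KO replicate 2, the one with a Mirg reading near the wild-type range, and the other 9 KO libraries all lay below the 5 wild-type libraries. The mean was 4.03-fold lower in hypoglycaemic KO (-2.01 ± 0.51 SE, limma adjusted p = 0.0956). It was 3.22-fold lower in the normoglycaemic group (-1.69 ± 0.64, limma adjusted p = 0.965). Both values rest on the same 5 wild-type libraries. Without the library labelled replicate 2 the hypoglycaemic KO difference was -2.40 with a limma adjusted p of 0.0115. A second Cyp2e1 probe gave -2.22 and -1.93. Both KO groups, set against each other, differed by -0.33 ± 0.60, which is within the spread (limma adjusted p = 0.806).

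**Figure D2:**
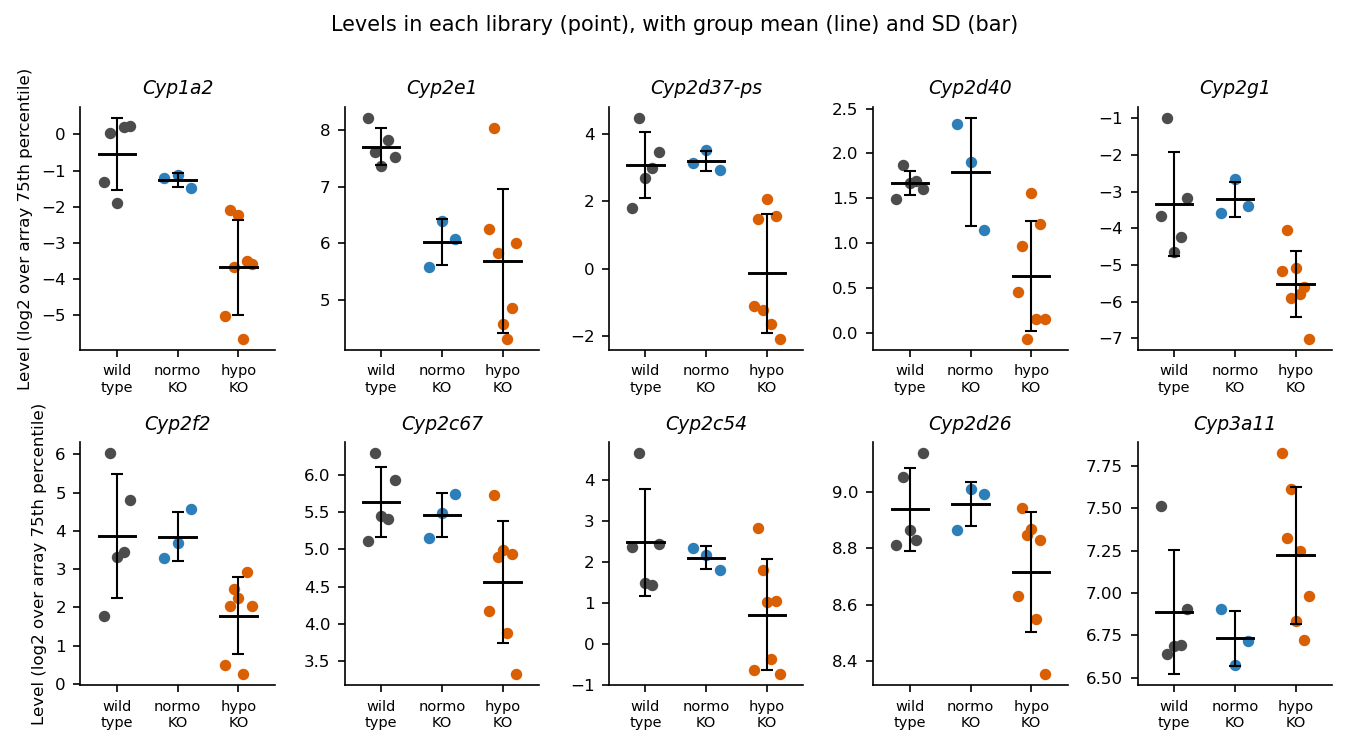
Level (log2 of the processed signal over the array's 75th percentile, y axes differ between panels) of 10 genes in each library, by group, with the group mean (line) and SD (bar). All 7 hypoglycaemic KO points of Cyp1a2 lie below the 5 wild-type points; for Cyp2e1 the 3 normoglycaemic KO points lie below wild type as well, and 1 hypoglycaemic KO point, at 8.03, lies among the wild-type points.

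The Cyp2c subfamily, whose enzymes oxidise drugs and make signalling epoxides from arachidonic acid, was the largest group that lay lower. Of 13 tested genes 9 lay lower in hypoglycaemic KO livers at an unadjusted p under 0.05 (Cyp2c29, 2c37, 2c38, 2c39, 2c44, 2c50, 2c54, 2c67 and 2c68), none higher, with a median difference of -1.16. Cyp2c37 and Cyp2c50, whose probes match at 35 of 40 aligned bases, count as 2 of the 9 and may be 1 reading. A second Cyp2c37 probe, well above background on all 15 arrays, gave -1.44 (Pearson's r = 0.988 with the chosen probe). Whether that probe also reads Cyp2c50, or the other chosen Cyp2c probes read one another's transcripts, was not tested. Cyp2c67, the brightest, read 5.11, 6.30, 5.45, 5.42 and 5.94 in wild-type livers, 5.15, 5.48 and 5.75 in normoglycaemic KO livers, and 3.32 to 5.74 with a median of 4.90 in hypoglycaemic KO livers. In 6 of 7 hypoglycaemic KO livers it was below every wild-type liver, and the exception was again the library labelled replicate 2. Its mean was 2.12-fold lower (-1.08 ± 0.36 SE, limma adjusted p = 0.141).

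Cyp2c54 had the widest difference of the subfamily and also wide groups. It read 2.36, 4.65, 1.5, 1.45 and 2.44 in wild-type livers, 2.35, 2.18 and 1.80 in normoglycaemic KO livers, and -0.73 to 2.84 with a median of 1.02 in hypoglycaemic KO livers. The groups overlapped, with 5 of 7 hypoglycaemic KO livers below every wild-type liver (difference -1.77 ± 0.67, limma adjusted p = 0.179). Cyp2c29, a widely used marker of CAR activation, differed by -1.16 ± 0.37 (limma adjusted p = 0.135), with 6 of 7 livers below wild type. Cyp2c44, now named Cyp2c23, an epoxygenase, differed by -1.32 ± 0.38 (limma adjusted p = 0.116), with 5 of 7.

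The 13 Cyp2c genes lie on chromosome 19, 12 of them side by side. In mm9 order the 3 at one end, Cyp2c55, Cyp2c65 and Cyp2c66, differed by -0.16, 0.41 and 0.59, and none of these passed an unadjusted p of 0.05. The next 8, from Cyp2c29 at position 39403642 to Cyp2c50 at 40188154, differed by -0.66 to -1.77, and Cyp2c70 beyond them by -1.19 ± 0.63 (limma adjusted p = 0.324). The 3 end genes were also the dimmest probes of the subfamily, Cyp2c65 and Cyp2c66 being well above background in 7 and 13 libraries. Cyp2c44 lies apart from the others, at 44079535.

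The libraries ranked alike across the subfamily. Wild-type replicate 2 was the highest wild-type library for all 11 Cyp2c genes measured in every library, and among hypoglycaemic KO livers the library labelled replicate 2 was the highest for all 11 and replicate 7 the lowest for 10. The mean over these 11 genes was 1.97, 3.66, 1.63, 1.75 and 2.45 in wild-type livers, 1.96, 2.15 and 2.10 in normoglycaemic KO livers, and 0.04 to 2.39 in hypoglycaemic KO livers. The count of Cyp2c genes lying lower at an unadjusted p under 0.05 was 5 of 13 without wild-type replicate 2 (median -0.92) and 9 of 13 without the library labelled hypoglycaemic KO replicate 2 (median -1.35). It was 10 with slide as a block, 9 within slide 2 and 2 within slide 1, where all 13 differences were below 0.

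**Figure D3:**
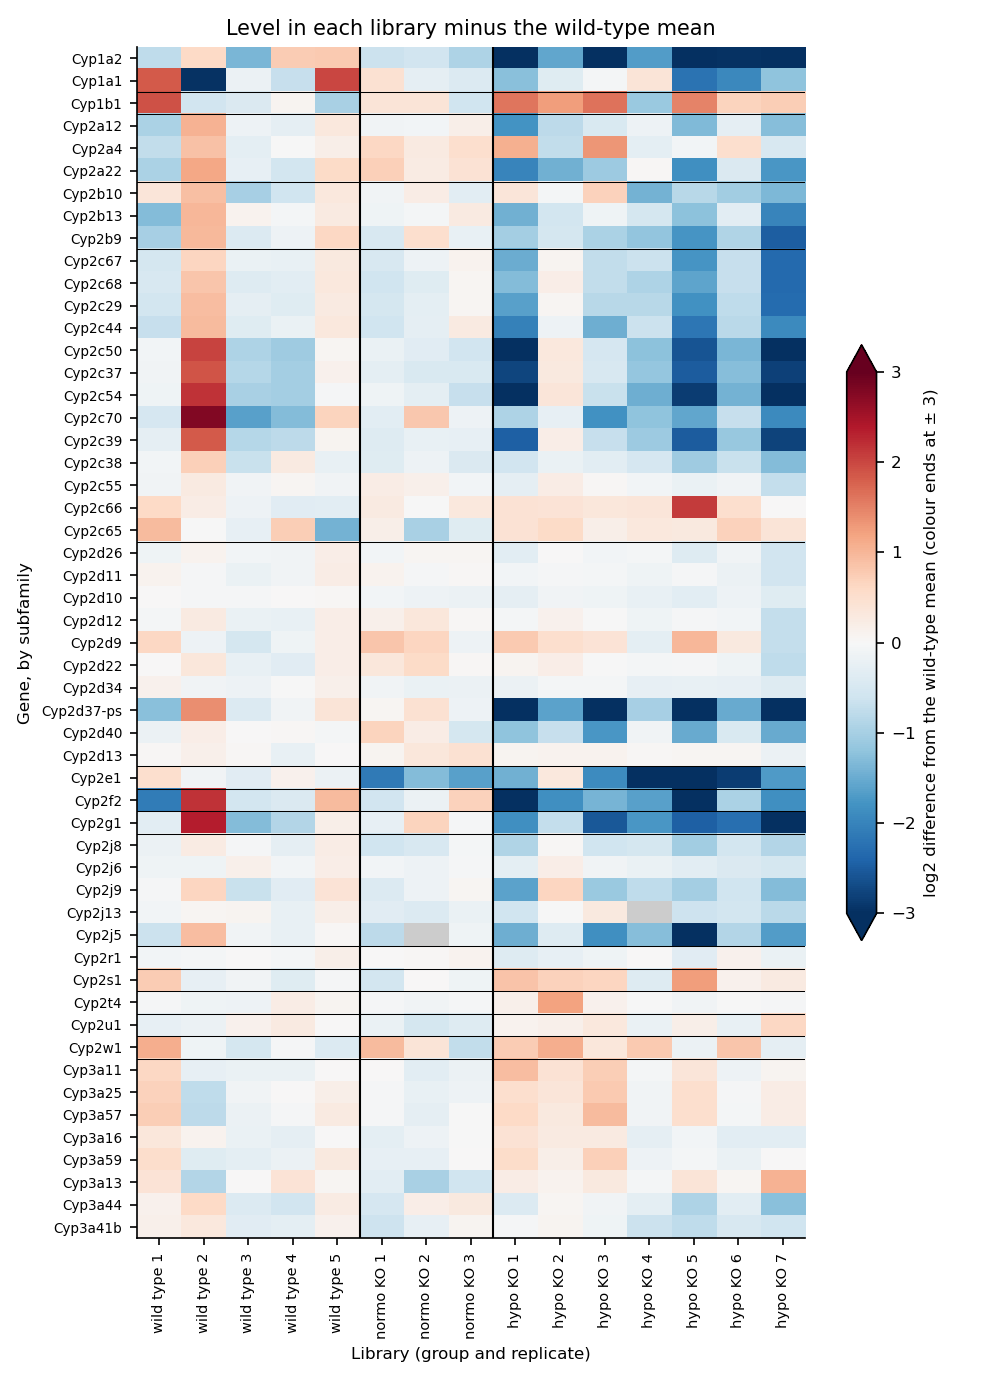
Level of each tested gene (rows, by subfamily) in each library (columns) minus the wild-type mean of that gene, on a log2 colour scale that ends at ± 3 (blue lower, red higher, grey a spot left out). The rows of the 11 Cyp2c genes measured in every library lie on the red side in wild-type replicate 2. They lie on the blue side in hypoglycaemic KO replicates 1, 5 and 7, though Cyp2c55 only faintly. The rows of the dim Cyp2c65 and Cyp2c66 do not follow this, and the hypoglycaemic KO replicate 2 column is pale over the 11. The Cyp3a rows are mostly pale, the exceptions including Cyp3a44 (blue) and Cyp3a13 (red) in hypoglycaemic KO replicate 7.

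Genes of the Cyp2a, Cyp2b, Cyp2f and Cyp2g subfamilies share a cluster on chromosome 7. Cyp2f2, which bioactivates naphthalene, read 1.77, 6.03, 3.31, 3.43 and 4.81 in wild-type livers, 3.30, 3.69 and 4.56 in normoglycaemic KO livers, and 0.25 to 2.92 with a median of 2.04 in hypoglycaemic KO livers. All 7 hypoglycaemic KO livers lay below the 3 normoglycaemic KO livers, but 5 lay above wild-type replicate 1. The mean was 4.26-fold lower than in wild type (-2.09 ± 0.66, limma adjusted p = 0.130), and without wild-type replicate 1 the difference was -2.61 (limma adjusted p = 0.0446).

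Cyp2g1, an olfactory steroid hydroxylase, was dim and was well above background in 5 of 7 hypoglycaemic KO livers and in every other liver. It read -3.66, -0.99, -4.65, -4.23 and -3.17 in wild-type livers, -3.58, -2.67 and -3.38 in normoglycaemic KO livers, and -7.01 to -4.05 with a median of -5.59 in hypoglycaemic KO livers. In 6 of 7 livers it was below every wild-type liver (-2.17 ± 0.58, limma adjusted p = 0.103). Of the Cyp2a genes Cyp2a12, a testosterone hydroxylase, differed by -0.86 ± 0.34 (limma adjusted p = 0.191) and Cyp2a22 by -1.21 ± 0.41 (limma adjusted p = 0.145). Cyp2a4, a steroid 15α-hydroxylase, differed by 0.19 ± 0.36.

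Of 5 Cyp2b genes 3 were tested. Cyp2b10, the standard CAR target, read 4.03, 4.56, 2.65, 3.05 and 3.97 in wild-type livers and 2.24 to 4.35 in hypoglycaemic KO livers, so the groups overlapped (-0.52 ± 0.42, limma adjusted p = 0.532). Cyp2b9, which is female-biased in adults, differed by -1.26 ± 0.38 (limma adjusted p = 0.121), and Cyp2b13 by -0.88 ± 0.38 (limma adjusted p = 0.225). Cyp2b9 was below its wild-type mean in 7 of 7 hypoglycaemic KO livers and below every wild-type liver in 4. Ddx3y, a Y-linked gene, read above 0 in 1 of 5 wild-type, 2 of 3 normoglycaemic KO and 2 of 7 hypoglycaemic KO libraries. With its level as a covariate 26 of the 53 genes lay lower in hypoglycaemic KO livers at an unadjusted p under 0.05 and 0 higher.

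The 10 Cyp2d genes, which metabolise many basic drugs and lie together on chromosome 15, held both the brightest and some of the most even readings. Cyp2d26 read 8.81, 9.05, 8.86, 8.83 and 9.14 in wild-type livers and 8.35 to 8.94 in hypoglycaemic KO livers, a difference of -0.22 ± 0.11 (limma adjusted p = 0.277). Cyp2d10 was tight enough for a small difference to separate the groups. It read 6.74, 6.69, 6.69, 6.75 and 6.76 in wild-type livers, 6.64, 6.58 and 6.54 in normoglycaemic KO livers, and 6.36 to 6.63 in hypoglycaemic KO livers (-0.22 ± 0.06, limma adjusted p = 0.110). Every KO library, of either group, lay below every wild-type library.

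The pseudogene Cyp2d37-ps and its neighbour Cyp2d40 carried the large differences of the subfamily. Cyp2d37-ps read 1.82, 4.47, 2.68, 2.98 and 3.46 in wild-type livers, 3.15, 3.53 and 2.93 in normoglycaemic KO livers, and -2.07 to 2.08 with a median of -1.10 in hypoglycaemic KO livers. All 7 lay below the normoglycaemic KO livers, and 6 lay below every wild-type liver. The mean was 9.24-fold lower than in wild type (-3.21 ± 0.75, limma adjusted p = 0.0881), and the limma adjusted p was 0.0351 without hypoglycaemic KO replicate 4 (-3.58) and 0.0430 without wild-type replicate 1 (-3.52). Cyp2d40 differed by -1.04 ± 0.28 (limma adjusted p = 0.103, and 0.0392 without hypoglycaemic KO replicate 4). Their probes share 27 of 38 aligned bases, and whether either reads the transcript of the other was not tested. Of the other 8 Cyp2d genes, Cyp2d34 differed by -0.20 ± 0.08 (limma adjusted p = 0.188) on its brighter probe and by 0.39 on its other one, so its direction depends on the probe.

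In the Cyp2j subfamily, arachidonic acid epoxygenases in a cluster on chromosome 4, all 5 tested genes were below 0 and 4 passed an unadjusted p of 0.05. Cyp2j8 read 1.14, 1.56, 1.28, 1.05 and 1.53 in wild-type livers, 0.72, 0.84 and 1.26 in normoglycaemic KO livers, and 0.28 to 1.34 with a median of 0.71 in hypoglycaemic KO livers. The 1.34 was the library labelled replicate 2, and the other 6 lay below wild type (-0.64 ± 0.17, limma adjusted p = 0.103, and -0.75 with an adjusted p of 0.0368 without that library). Cyp2j5 differed by -1.58 ± 0.45 (limma adjusted p = 0.117). Its probe was well above background in 4 of 7 hypoglycaemic KO livers and in all wild-type livers, and 1 normoglycaemic KO spot was left out.

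The remaining Cyp2 genes are single members of subfamilies with housekeeping, vitamin or extrahepatic roles, and no difference from wild type passed an unadjusted p of 0.05 among them. The vitamin D 25-hydroxylase Cyp2r1 differed by -0.17 ± 0.09, Cyp2s1 by 0.49 ± 0.26, Cyp2t4 by 0.19 ± 0.19, Cyp2u1 by 0.14 ± 0.14 and Cyp2w1 by 0.48 ± 0.35. Of the other Cyp2u1 probes 1 gave -0.10 and 1 gave 0.22. Cyp2w1 was well above background in 1 wild-type and 4 hypoglycaemic KO libraries, so its difference rests on readings near background.

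The 8 Cyp3a genes, the main drug-oxidising P450 genes of the gut and liver, did not share the lower levels as a group. In hypoglycaemic KO livers 0 of 8 lay lower and 0 higher at an unadjusted p under 0.05 (limma), the median difference was 0.22, and 3 were below 0. Cyp3a11, the standard PXR target, read 7.52, 6.64, 6.69, 6.69 and 6.91 in wild-type livers, 6.90, 6.58 and 6.72 in normoglycaemic KO livers, and 6.72 to 7.83 with a median of 7.25 in hypoglycaemic KO livers. The groups overlapped, with 2 of 7 hypoglycaemic KO livers above every wild-type liver (0.33 ± 0.20, limma adjusted p = 0.395). Cyp3a44, the gene of the subfamily farthest from 0, differed by -0.46 ± 0.26 (limma adjusted p = 0.354). Cyp3a13, an intestinal form, differed by 0.29 ± 0.24 on its brighter probe and by -0.00 on its other probe. The Cyp3a result depended on single libraries and on the model: 3 of 8 lay higher at an unadjusted p under 0.05 without wild-type replicate 1 (median 0.34). With the replicate number as a block Cyp3a11 lay higher at that threshold (0.48 ± 0.13, limma adjusted p = 0.110). With slide as a block 2 of 8 lay lower (Cyp3a41b and Cyp3a44). Without the library labelled hypoglycaemic KO replicate 2, Cyp3a41b lay lower at that threshold (-0.44, limma adjusted p = 0.205). Cyp3a44 then differed by -0.55 (limma adjusted p = 0.281), while Cyp3a11, Cyp3a13, Cyp3a25, Cyp3a57 and Cyp3a59 stayed above 0.

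Normoglycaemic KO livers were compared with the same wild-type livers, which asks how the genotypes differ at nearer glucose levels. Of the 53 genes 0 passed the adjusted threshold and neither did any other gene (0.0%), and at an unadjusted p under 0.05 Cyp2e1 lay lower and Cyp2d13 higher, where 1.73% of all tested genes lay lower and 3.07% higher. The median difference was -0.10, against 0.01 over all genes, and 35 of 53 were below 0. Cyp2d13 read -2.68, -2.55, -2.68, -2.94 and -2.71 in wild-type livers against -2.62, -2.37 and -2.25 in the normoglycaemic group (0.30 ± 0.11, limma adjusted p = 0.965), with 2 of the 3 above every wild-type liver. Deviations of wild-type and normoglycaemic KO libraries of equal replicate number correlated at 0.12 to 0.32, but these pairs also shared a slide. With the replicate number as a block 2 genes lay lower and 2 higher, Cyp2e1 by -2.15 ± 0.63 (limma adjusted p = 0.717). All 3 normoglycaemic KO livers lay below all 5 wild-type livers for Cyp2e1 and Cyp2d10, and for 1.54% of all tested genes. For Cyp2e1 the difference was -1.91 within slide 1 and -1.50 within slide 2, with 2 and 1 normoglycaemic KO libraries.

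Markers of other cell types also differed between libraries. The summed level (log2) of 19 tested pancreas markers spanned 3.90 to 7.41 among wild-type libraries, 3.77 to 10.2 among normoglycaemic and 3.42 to 7.74 among hypoglycaemic KO libraries, with 10.2 in normoglycaemic KO replicate 2 and 3.77 and 3.92 in the other 2 of that group. The median difference of normoglycaemic KO from wild type over the 19 was 1.19, and 9 were well above background in every library. At an unadjusted p under 0.05, 1 of the 19 lay higher, against 3.07% of all tested genes. Granulocyte markers had a median difference of 0.22 in hypoglycaemic KO against wild type, with 5 of 12 higher and 0 lower at an unadjusted p under 0.05, and erythroid markers one of -0.003, with 1 of 11 lower. Of all tested genes 9.71% lay higher and 8.99% lower. Endothelial markers had 3 of 12 higher and 0 lower, and macrophage markers 1 of 11 higher and 2 lower. Lower, with 0 higher, were 2 of 12 stellate and fibroblast, 1 of 10 bile duct, 2 of 8 adrenal cortex and 1 of 10 intestine markers. Whether these cells had a part in the P450 levels was not tested.

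Hypoglycaemic were compared with normoglycaemic livers, 2 groups that carry the same KO label, although Mirg in the library labelled hypoglycaemic KO replicate 2 goes against it. None of the 53 genes passed the adjusted threshold (limma), where 15 of all genes did, or 0.0544%, and 10 lay lower and 3 higher at an unadjusted p under 0.05, against 9.97% and 9.37% of all tested genes. The median difference was -0.31, against -0.01 over all genes. The 10 were Cyp1a2, Cyp2a12, Cyp2a22, Cyp2b9, Cyp2c44, Cyp2d13, Cyp2d37-ps, Cyp2d40, Cyp2f2 and Cyp2g1, and the 3 were Cyp2s1, Cyp2u1 and Cyp3a13. The bright Cyp2u1 probe averaged 7.46 in normoglycaemic and 7.97 in hypoglycaemic KO livers. Its other 2 probes averaged -1.71 and -4.18 in the former group and -1.68 and -3.97 in the latter. In 8 genes every hypoglycaemic KO liver lay below every normoglycaemic KO liver, as for 3.96% of all tested genes, and in 2 (Cyp3a13 and the dim Cyp2c65) every one lay above, as for 5.08%. Cyp2a22 read -1.45, -1.92 and -1.74 in normoglycaemic KO livers and -4.14 to -2.13 with a median of -3.61 in hypoglycaemic KO livers (-1.68 ± 0.48, limma adjusted p = 0.109, and 0.0388 without hypoglycaemic KO replicate 4). On its brighter probe Cyp3a13 read 4.18, 3.52 and 3.89 in normoglycaemic and 4.42 to 5.54 in hypoglycaemic KO livers, with no overlap (0.92 ± 0.28, limma adjusted p = 0.119). On its other probe, well above background on all 15 arrays, the groups overlapped, at 0.66 to 0.97 in normoglycaemic and 0.69 to 1.75 in hypoglycaemic KO livers.

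These counts moved with single libraries and with the slide. Without the library labelled hypoglycaemic KO replicate 2, 21 genes lay lower and 2 higher, without wild-type replicate 2, which enters only through the shared spread, 16 lay lower, and without normoglycaemic KO replicate 2 the count was 6. The count was 10 with slide as a block, 5 within slide 1 and 13 within slide 2. No Cyp2c gene other than Cyp2c44 passed an unadjusted p of 0.05 in this comparison with all libraries, and the median over the 13 was -0.91. Without the library labelled hypoglycaemic KO replicate 2, 8 of 13 lay lower (median -1.11), and the count was 6 within slide 2, 0 within slide 1, 5 without wild-type replicate 2 and 0 without normoglycaemic KO replicate 2 or 3.

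Blood glucose also varied within each group, and a slope shared by the groups was fitted for each gene. None of the 53 slopes passed the adjusted threshold (limma) and neither did any other gene (0.0%), and 6 genes lay lower and 6 higher with rising glucose at an unadjusted p under 0.05, against 9.98% and 8.11% of all tested genes. In the Cyp3a subfamily 4 of 8 genes fell in the first set, with Cyp3a25 at -0.30 ± 0.08, Cyp3a11 at -0.28 ± 0.08 and Cyp3a57 at -0.33 ± 0.10 per 10 mg/dl (limma adjusted p = 0.0964, 0.105 and 0.107). Each library was left out in turn, the one labelled hypoglycaemic KO replicate 2 included. Per mg/dl the slopes then ran from -0.035 to -0.023 for Cyp3a25, -0.034 to -0.024 for Cyp3a11 and -0.038 to -0.025 for Cyp3a57. A negative slope means a higher level in pups of lower glucose within a group. Ddx3y had a slope of -3.13 ± 1.02 per 10 mg/dl itself, and the 2 hypoglycaemic KO pups with a level above 0 had 9 and 16 mg/dl, so sex moved with glucose. With its level as a covariate 4 of 8 Cyp3a slopes lay lower, and 6 of the 53 lay lower and 9 higher. With the replicate block 1 of 8 Cyp3a slopes lay lower. Cyp2f2 went the other way at 0.89 ± 0.28 per 10 mg/dl (limma adjusted p = 0.125), as did Cyp2a22 at 0.57 ± 0.17 (limma adjusted p = 0.105). The slope of Cyp1a2 was 0.72 ± 0.27 and that of Cyp1b1 -0.70 ± 0.23 per 10 mg/dl (limma adjusted p = 0.190 and 0.140), and that of Cyp2e1 was -0.25 ± 0.28. Without hypoglycaemic KO replicate 7, 12 slopes were higher at an unadjusted p under 0.05 and 3 passed the adjusted threshold (Cyp2a12, Cyp2a22 and Cyp2d37-ps), and without replicate 4 only 3 were lower.

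**Figure D4:**
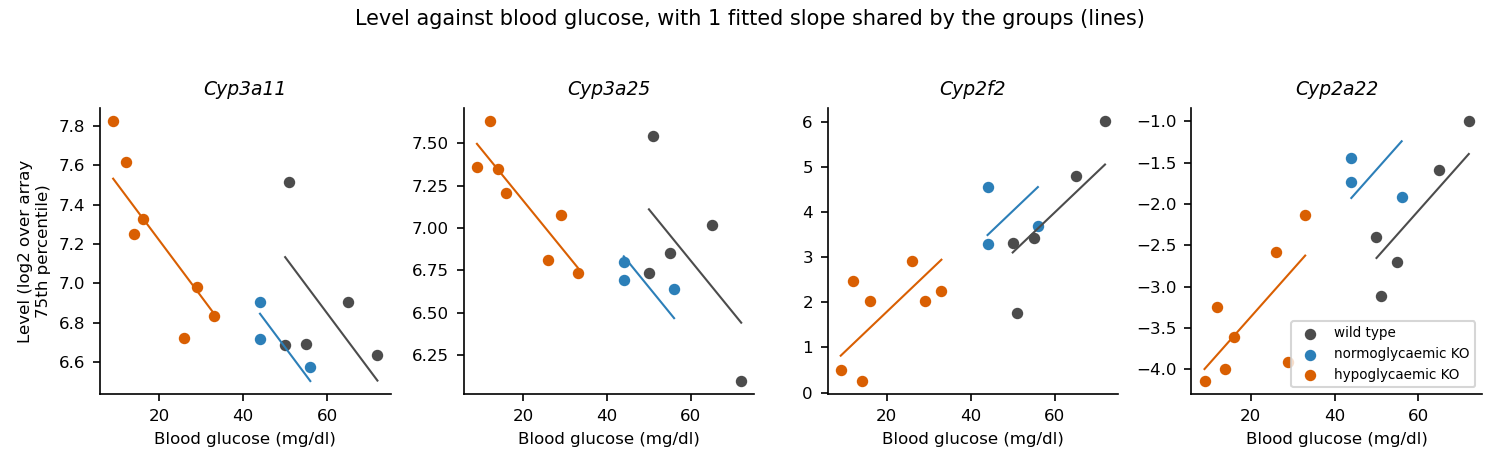
Level (log2 of the processed signal over the array's 75th percentile, y axes differ between panels) of 4 genes against blood glucose (mg/dl, x axis), 1 point per pup coloured by group, with the fitted slope that the groups share. Cyp3a11 and Cyp3a25 lie higher at lower glucose among hypoglycaemic KO pups, and Cyp2f2 and Cyp2a22 lie lower.

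Genes that regulate or serve these enzymes were followed from fixed lists. Of 30 regulators of P450 transcription 5 lay lower and 7 higher in hypoglycaemic KO than in wild-type livers at an unadjusted p under 0.05, with a median of 0.02, where 8.99% of all tested genes lay lower and 9.71% higher, shares that the counts of the other lists are also to be read against. Tbx3, a T-box repressor expressed in pericentral hepatocytes, was the one that passed over all genes: its levels spanned 1.26 to 1.71 among wild-type livers, 1.13 to 1.47 among normoglycaemic and 0.17 to 0.93 among hypoglycaemic KO livers, and it fell by 1.09 on the log2 scale (SE 0.13, limma adjusted p = 0.0155). The receptors themselves, named here after their values were seen, did not pass the adjusted threshold: CAR (Nr1i3) differed by 0.02 ± 0.14, PXR (Nr1i2) by 0.09 ± 0.12 and the aryl hydrocarbon receptor (Ahr) by 0.46 ± 0.21 (limma adjusted p = 0.964, 0.738 and 0.264). Hnf4a differed by 0.41 ± 0.14 (limma adjusted p = 0.159).

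Of 18 electron transfer and haem genes 5 lay lower and 2 higher, with a median of -0.18. P450 oxidoreductase (Por) differed by 0.54 ± 0.24 (limma adjusted p = 0.233), and cytochrome b5 reductase (Cyb5r3) by -0.49 ± 0.16 (limma adjusted p = 0.134). In the aryl hydrocarbon receptor battery, leaving out its 3 P450 genes, 4 of 9 lay lower and 0 higher, and in the CAR and PXR targets without their 12 P450 genes 1 of 14 lay lower and 2 higher. Of the former, Gsta2 differed by -1.53 ± 0.31 (limma adjusted p = 0.0844), and of the latter Ugt2b34, a glucuronosyltransferase, by -1.35 ± 0.33 (limma adjusted p = 0.0884). Of the pericentral markers other than P450 genes 5 of 13 lay lower and 2 higher with a median of 0.02, and of the periportal markers 2 of 12 lower and 3 higher with a median of 0.31. The 32 tested genes of other P450 families had a median of 0.02, with 2 lower and 3 higher.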

How the data were processed

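Liver RNA of 15 pups was hybridised to 1-colour Agilent arrays, 1 per pup, and the intensity of each spot was deposited by the authors as scanner output from Agilent Feature Extraction 10.10, per the file headers. The authors also deposited processed log2 values, made with limma per the submitters' processing notes, which served as an alternative. Probe positions are those of mm9, per the file headers. From the processed Cy3 intensity, control spots and spots marked as outliers were left out (1 spot each for Cyp2j5 and Cyp2j13), the 75th percentile of each array was subtracted on the log2 scale, repeat spots were averaged, and probes well above background on at least 3 arrays were tested with limma 3.58.1 in R 4.3.3 (lmFit and eBayes, all 3 groups in 1 fit, 27556 genes, Benjamini-Hochberg adjustment over all of them). Folds are 2 to the power of the log2 difference, and precision is limited by the number of arrays. Python 3.11.15, numpy 2.4.6, pandas 2.3.3 and matplotlib 3.10.9 were used for the rest.

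The members and gene lists were chosen with earlier results of these data known. Genes were named where they passed over all genes, were among the 6 smallest p in a comparison or the 8 highest in wild type, led their subfamily in level or difference, or had probes of opposite sign, with up to 4 genes of each list; any other was chosen after its values were seen (Cyp1a1, Cyp2a4, Cyp2b13, Cyp2c29, Cyp2c44, Cyp2c70, other Cyp2c genes given by position, the nuclear receptors, Hnf4a and Por among them). The replicate numbers come from the titles. Deviations of same-numbered libraries correlated at 0.12 to 0.32 between wild type and normoglycaemic KO. The range was -0.18 to 0.27 between wild type and hypoglycaemic KO and -0.15 to 0.16 between the KO groups. All same-numbered pairs of wild type and normoglycaemic KO also shared a slide. A pair of unlike number, wild-type replicate 5 with normoglycaemic KO replicate 3, reached 0.17. Whether the numbers pair any libraries therefore cannot be told. Where the labels do not give the litter, p-values measure the spread between these pups. The fit was tested on simulated data. Alternatives covered the background correction, scaling, filter, slide, replicate block, Ddx3y level, choice of probe and each library left out.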

Additional observations from a re-analysis of the deposited data

Results flagged for a closer look

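In 62 groups of 5 or 7 libraries of the named genes, 7 held 1 library far from the others by Dixon's criterion, where chance flags about 1 in 20 groups. The library of hypoglycaemic KO replicate 7 stood apart in 4 of them: it read 7.493 for Cyp2d11 (the others 7.907 to 8.047), 5.44 for Cyp2d12 (6.038 to 6.287) and -2.887 for Cyp2d13 (-2.684 to -2.601), all low, and 5.542 for Cyp3a13 (4.422 to 4.869), which was high. Hypoglycaemic KO replicate 4 read -4.028 for Cyp1b1, below the other 6 at -2.238 to -1.284. The library labelled hypoglycaemic KO replicate 2 read -1.518 for Cyp2t4, above the others at -2.809 to -2.568. Wild-type replicate 1 read 0.5716 for Cyp2s1, above the others at -0.5407 to -0.2285.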

How the results depend on the processing

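For hypoglycaemic KO against wild type, 1 gene of the families passed the adjusted threshold after normexp correction and 1 on the authors' processed values, in place of 0, both times Cyp1a2. The count lying lower was 6 within slide 1, and the count lying higher was 1 within slide 2 and 4 with the replicate block. With 1 library left out, 0 to 4 genes passed, 19 to 28 lay lower and 0 to 7 higher, the median ran from -0.52 to -0.30, and 0 to 747 of all genes passed. For normoglycaemic KO against wild type, the count lying lower was 3 after normexp and in a fit of only both groups, 2 after quantile scaling, with the percentile over detected probes, on the authors' values, with the stricter filter and with the replicate block, and 0 within slide 2. The count higher was 0 within slide 1 and 2 with the replicate block. With 1 library left out 0 passed, 1 to 3 lay lower and 0 to 1 higher, the median ran from -0.19 to 0.01, and 0 to 2 of all genes passed. For hypoglycaemic against normoglycaemic KO, the count lower was 17 on the authors' values and 5 within slide 1, the count higher 1 within slide 1, 5 with the replicate block and 5 in a fit of only both groups, and the median -0.61 within slide 2. With 1 library left out 0 to 3 passed, 6 to 21 lay lower, 2 to 6 higher, the median ran from -0.40 to -0.23, and 0 to 952 of all genes passed. For the glucose slope 0 to 3 passed, 3 to 8 lay lower, 4 to 12 higher, the median ran from -0.0037 to 0.0092 per mg/dl, and 0 to 985 of all genes passed. Cyp2d34 turned to 0.098 (hypoglycaemic KO) and 0.19 (normoglycaemic KO) against wild type as a mean over its probes, which differ in sign. The cause of the other changes was not tested. Readings of Cyp2c65, Cyp2c66, Cyp2g1, Cyp2j5 and Cyp2w1 are limited by signal near background.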
